A study of Homo sapiens with 8 samples.

Results

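The measurement described here was how far the expression of a gene under 2 drugs together departed from the sum of what each drug did alone. RNA-seq had been run on MV4-11, an established human acute myeloid leukaemia line that carries FLT3-ITD and the MLL-AF4 fusion, in 4 groups of 2 libraries. The control group had received DMSO, the second group the LSD1 inhibitor tranylcypromine (TCP) at 5 μM, the third the CDK4/6 inhibitor palbociclib at 0.5 μM, and the combination both molecules at these doses, for 4 days by the labels. In the methods of the study palbociclib came first and both molecules followed, and whether TCP alone lasted as long as the labels say is not settled there. The study grew its AML lines on HS-5 stromal cells, which the labels of these libraries do not mention, and nothing says that the 2 libraries of a group came from separate cultures, so the p-values measure the spread between these samples.

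For each gene and each replicate number, the interaction was combination − TCP − palbociclib + control on log2(TPM + 1), where TPM is the deposited, length-scaled expression unit. A value of 0 means that the log2 changes of the single drugs added up to that of the combination, and a value of 1 that the combination lay 2 times above that sum. Of 26364 gene symbols in the deposited table, 14151 had at least 1 TPM in 2 or more libraries. Of these, 3854 (27.2%) were super-additive, that is positive in both replicates, 5018 (35.5%) were sub-additive, that is negative in both, and 5279 had opposite signs. The sign in each replicate chose the members, so it is a description and supports nothing further. The filter also let in genes through their combination libraries, and for these a positive value was favoured in advance, also in the gene lists below.

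Palbociclib blocks the kinases CDK4 and CDK6, which phosphorylate the retinoblastoma protein and so release the E2F factors that drive S-phase genes. TCP inactivates LSD1 (KDM1A), a histone demethylase that sits with CoREST and HDAC proteins and with the repressor GFI1 at enhancers of myeloid genes. In AML cells both kinds of molecule are known to bring on myeloid maturation, in which genes of surface receptors, granule proteins and lysosomes come on and proliferation genes go off. A sum on the log2 scale corresponds to folds that multiply.

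No gene passed the test of the interaction (0%, limma, adjusted p below 0.01 and size at least 1). The smallest adjusted p was 0.172, and 405 genes (2.86%) had an unadjusted p below 0.05 with a positive value and 499 (3.53%) with a negative one. The median SE of an interaction was 0.190, while the SD across genes was 0.435 in replicate 1 and 0.422 in replicate 2. Across genes, which are not independent replicates and here share a library's scaling, the interactions of the replicates had r = 0.282 and rho = 0.366. Their medians were -0.05 in replicate 1 and 0.01 in replicate 2. All values below are therefore sizes with their spread, and none of the genes named rose or fell beyond the sum by this test. Differences between 2 groups share libraries with the interaction that ordered the named genes. The p-values of such differences in named genes are thus descriptions and support nothing further.

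The 8 libraries each had 13320 to 13640 genes at 1 TPM or more. The 10 most abundant entries took 9.12% to 9.67% of all TPM in the control and TCP libraries and 14.0% to 15.8% in the palbociclib and combination libraries, which lowers other genes in the latter. The 8 markers chosen for the line, among them PTPRC, CD33, FLT3 and HOXA9, were present in every library, at 27.1 TPM or more. For single drugs against control, 643 genes (4.54%) were higher and 645 (4.56%) lower with palbociclib, and 8 (0.0565%) higher and 0 (0%) lower with TCP. With the combination 830 (5.87%) were higher and 1107 (7.82%) lower than control, and against palbociclib 65 (0.459%) were higher and 6 (0.0424%) lower.

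**Figure D1:**
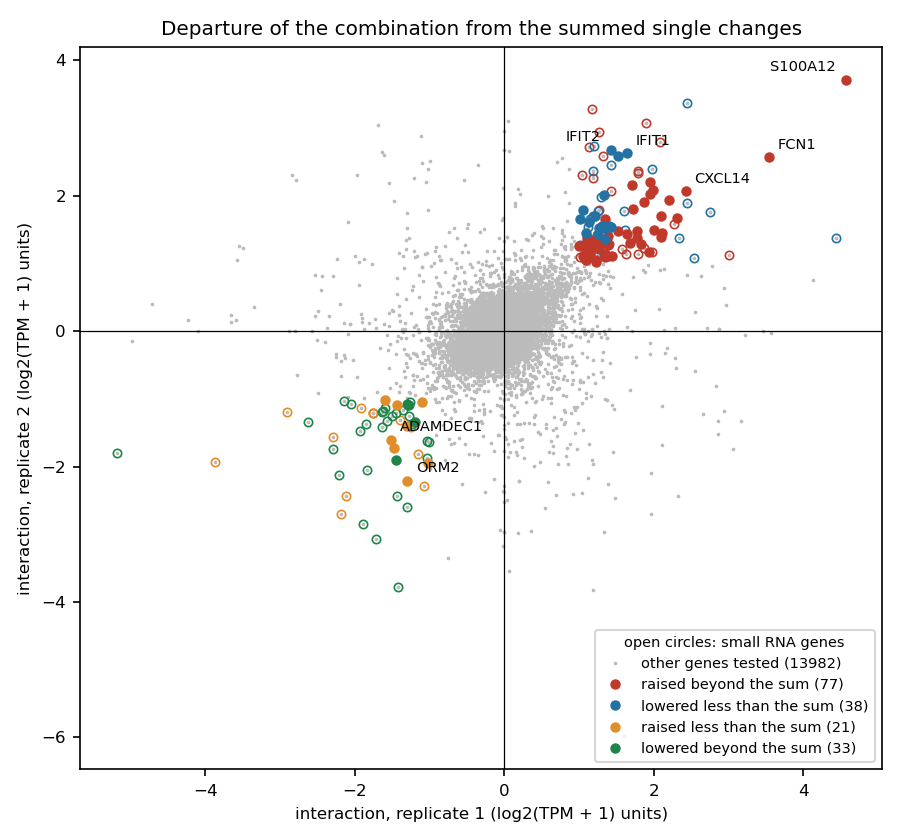
Interaction of each of the 14151 genes in replicate 1 (horizontal) and replicate 2 (vertical), both in log2(TPM + 1) units, with genes at 1 or more in size and the same sign in both replicates coloured by shape and small RNA genes as open circles. S100A12, at 4.57 and 3.71, lay farthest along the diagonal, and most genes formed a cloud around 0.

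The members took 4 shapes, by their sign and by whether the combination lay above control or not. Genes at the control level were counted as lowered. Genes raised beyond the sum numbered 1945, and genes lowered less than the sum, also positive, 1909. Genes raised less than the sum numbered 1244 and genes lowered beyond it 3774. At a size of at least 1 in both replicates 115 genes (0.813%) were positive and 54 (0.382%) negative, while 63 reached that size in both with opposite signs. The 115 comprised 77 raised beyond the sum and 38 lowered less, and the 54 comprised 21 raised less and 33 lowered beyond. Of these 169 genes, 93 were entries for small RNAs, a class that made up 6.44% of the genes tested. It was set by gene name and holds microRNAs, small nucleolar RNAs and other short RNAs. Without that class the 4 shapes held 49, 16, 8 and 3 genes. They are described in this order.

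**Figure D2:**
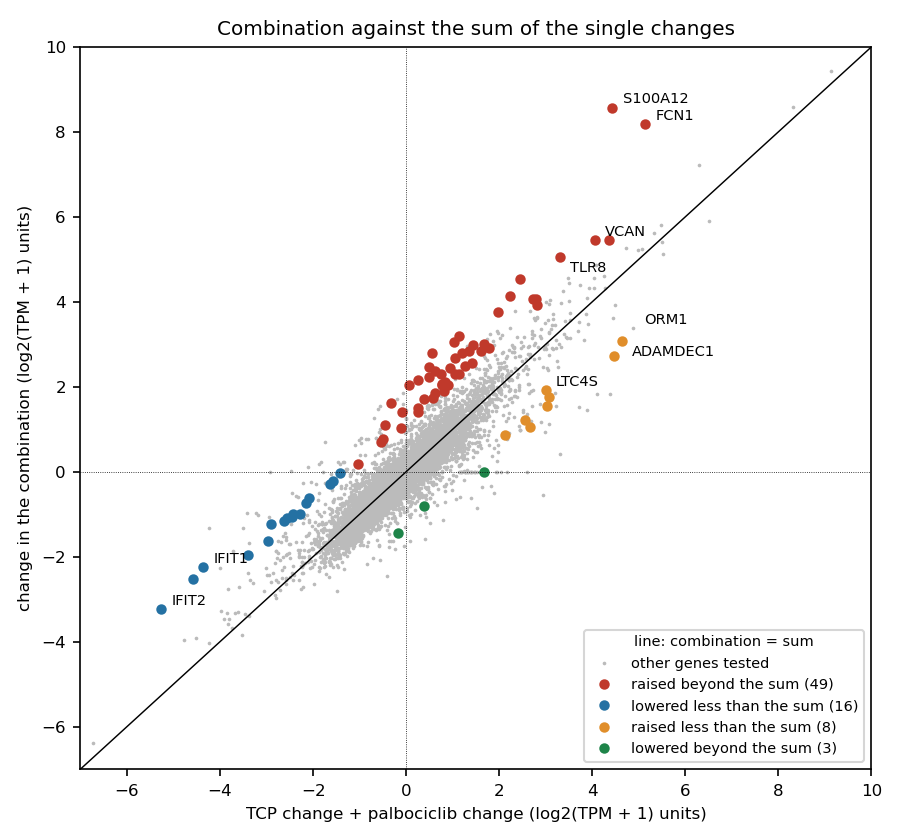
Change in the combination against control (vertical) plotted over the sum of the TCP and palbociclib changes (horizontal), both in log2(TPM + 1) units, for the 14151 genes, with the line where both are equal. The 49 coloured genes raised beyond the sum and the 16 lowered less lie above the line, the 8 raised less and the 3 lowered beyond lie below it.

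The genes raised beyond the sum by 1 or more were mostly low in control. In 27 of the 49 both control libraries were below 1 TPM, and their median was 0.795 TPM in control and 11.7 TPM in the combination. The median log2 change was 0.41 with TCP, 0.58 with palbociclib and 2.45 with both. Both combination libraries lay above the other 6 libraries in 47 of the 49 and in 1163 of all genes (8.22%), and since the rule chose the 49 on these values the count is a description.

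S100A12, a calcium-binding alarmin of neutrophils and monocytes (GRCh37 chr1:153346187-153348097, minus strand), had the largest interaction of the genes named. Control replicate 1 listed it at 0 and control replicate 2 had 0.411 TPM. It measured 1.37 and 4.53 TPM with TCP, 8.39 and 6.56 with palbociclib and 527 and 386 with both. Both combination libraries thus lay far above the other 6, without overlap. The interaction was 4.57 in replicate 1 and 3.71 in replicate 2, with a mean of 4.14 ± 0.55 (SE, limma adjusted p = 0.193). The combination exceeded palbociclib by 5.75 on the log2 scale, a difference that is part of the interaction by which the gene was chosen. FCN1, which encodes ficolin-1, a lectin that binds microbial sugars (GRCh37 chr9:137795078-137809758, minus strand), took the same course. Its values were 0 and 0.224 TPM in control, 1.1 and 3.47 with TCP, 11.5 and 14.8 with palbociclib and 306 and 339.7 with both. Its interaction was 3.05 ± 0.47 (SE, limma adjusted p = 0.21). Since both genes were near 0 in control, the added 1 TPM weighed on them, and with a pseudocount of 0.1 TPM the interactions were 2.08 and 2.68 for S100A12 and 1.14 and 1.05 for FCN1.

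The list of granule proteins to which both belong was mixed. Of the 15 of 25 calprotectin and granule genes that passed the filter, 8 were positive and 4 negative in both replicates, and the median interaction was 0.24 against -0.03 for all genes tested. It was 0.07 without TCP replicate 1. S100A9, a subunit of calprotectin, was at 13.7 and 18.2 TPM in control, 45 and 60.5 with TCP, 1820.0 and 1578 with palbociclib and 7343 and 5756 with both. Its interaction of 0.28 ± 0.28 (SE) was no larger than its error. LYZ, lysozyme, rose from 278 and 770.5 TPM in control to 16431 and 18984 with palbociclib (limma adjusted p = 4.58e-04). With both molecules it measured 26591 and 28617 TPM, and its interaction was negative in both replicates, at -0.67 and -0.55. The control libraries lay nearly 3-fold apart, and the interaction was 0.13 without control replicate 1 and -1.34 without control replicate 2. MPO, LYZ and S100A9 fall outside the rule for named genes and were chosen after their values were seen. MPO, the myeloperoxidase of primary granules, had 0.57 and 0.50.

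Pattern recognition receptors made up one of the lists with the largest median. Of 21 of 27 genes tested, 16 were positive in both replicates and 0 negative, 8 had an unadjusted p below 0.05, and the median interaction was 0.53. Over all genes 27.2% were positive in both replicates and 2.86% positive with such a p, against which the lists below are to be read. CLEC7A, which encodes dectin-1, a receptor for fungal glucans, was at 0 and 0.034 TPM in control and 0 and 0.111 with TCP. Palbociclib gave 1.06 and 0.939 TPM and the combination 7.18 and 7.83. The interaction was 2.04 ± 0.24 (SE, limma adjusted p = 0.172), with replicates at 1.99 and 2.08. Outside the combination only palbociclib replicate 1 reached 1 TPM, so CLEC7A passed the filter through the combination, which favoured a positive value. CLEC5A, a lectin receptor that signals through DAP12, measured 0.0344 and 0.0542 TPM in control, 0.145 and 0.265 with TCP, 2.15 and 6.8 with palbociclib and 15.1 and 35 with both. Its replicates differed more than those of CLEC7A, and the SE of its interaction of 2.07 was 0.69. With a pseudocount of 0.1 TPM it was 1.89 and 1.10. TLR8, an endosomal sensor of single-stranded RNA, went from 0.67 and 0.945 TPM in control and 1.15 and 1.67 with TCP to 10.5 and 14.7 with palbociclib and 57.9 and 59.8 with both. Its interaction was 1.75 ± 0.27 (SE, limma adjusted p = 0.21). CD14, the co-receptor for lipopolysaccharide, FPR1, a receptor for formylated peptides, and TLR4 also had positive values in both replicates, at 0.81 and 1.05, 1.05 and 1.11 and 0.70 and 0.61, and were chosen after their values were seen. With a pseudocount of 0.1 TPM these were 0.19 and 0.75 for CD14 and 0.27 and 0.78 for FPR1, both at 2.1 TPM or less in control, and CD14 was 0.60 without control replicate 2. CD209, the dendritic cell lectin DC-SIGN, measured 0.852 and 1.19 TPM in control, 2.49 and 2.42 with TCP, 0.674 and 0.943 with palbociclib and 9.41 and 9.58 with both, with the palbociclib and control libraries overlapping. CD36, a scavenger receptor for oxidised lipids, had 1.01 and 0.89.

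Fc, LILR and Siglec receptors leaned the same way. In this list 23 of 27 tested genes were positive in both replicates and 2 negative, 10 had an unadjusted p below 0.05, and the median was 0.40, or 0.70 without control replicate 2. LILRA5, an activating member of the leukocyte immunoglobulin-like receptors, was at 1.73 and 1.9 TPM in control, 6.42 and 8.37 with TCP, 3.57 and 3.34 with palbociclib and 52 and 44.6 with both. The lowest combination library was several times above the highest of the other 6. The interaction was 1.90 ± 0.21 (SE, limma adjusted p = 0.172), and the difference between the combination and palbociclib, which is part of it, was 3.46. LILRA3, a soluble member of the family, measured 0.302 and 0.298 TPM in control, 0.955 and 0.437 with TCP, 1.34 and 1.08 with palbociclib and 12.7 and 9.54 with both. LILR genes share near-identical stretches, so reads may have been split between them. FCER2, the low-affinity IgE receptor CD23, was already expressed in control, at 18.9 and 9.34 TPM. It measured 24.7 and 11 TPM with TCP, 13 and 13 with palbociclib and 65.5 and 59.9 with both, and both combination libraries lay above the other 6. The control libraries differed 2-fold, and the interaction was 1.89 ± 0.56 (SE). SIGLEC1, the sialoadhesin of macrophages, had 2.09 and 1.38. It is also induced by interferon, and its interaction was 0.89 without TCP replicate 2 and 2.58 without TCP replicate 1.

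The promoters of 2 of these genes, both low with each drug and high with both, are shown because they hold a match to the motif marked. They are the 250 bases before the RefSeq start, read along the gene (GRCh38.p14, minus strand in both), with matches to the C/EBP core TTGCNNAA on either strand in capitals. C/EBP proteins are transcription factors of granulocytes and monocytes. The S100A12 window is chr1:153375622-153375871 and the LILRA5 window chr19:54313167-54313416.
S100A12: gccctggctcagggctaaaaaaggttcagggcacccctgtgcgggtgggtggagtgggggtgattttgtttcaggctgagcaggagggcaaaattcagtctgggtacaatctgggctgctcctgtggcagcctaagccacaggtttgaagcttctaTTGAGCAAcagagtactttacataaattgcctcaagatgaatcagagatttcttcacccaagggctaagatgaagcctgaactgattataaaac
LILRA5: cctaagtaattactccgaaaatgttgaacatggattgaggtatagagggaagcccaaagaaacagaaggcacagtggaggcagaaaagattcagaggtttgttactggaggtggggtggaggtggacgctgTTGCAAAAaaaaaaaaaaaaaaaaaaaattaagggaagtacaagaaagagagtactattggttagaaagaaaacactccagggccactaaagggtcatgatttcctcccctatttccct
The match begins 94 bases before the start in S100A12 and 119 bases before it in LILRA5. FCN1 took a similar course and was searched too, but has none in its window and is not shown. Of the 77 genes raised beyond the sum by 1 or more, 36 matched a RefSeq entry, with 51 promoters, of which 7 (13.7%) held this core and 1 (1.96%) held the PU.1 core GAGGAAGT on either strand. Over all 35116 RefSeq promoters the shares were 9.05% and 2.17%, and over the 13815 promoters of genes tested 6.54% and 2.42%. In the pattern recognition list 1 of 23 promoters (4.35%) held the C/EBP core and 1 (4.35%) the PU.1 core. In the Fc, LILR and Siglec list these were 2 of 32 (6.25%) and 1 (3.12%), so neither list exceeded the genes tested for C/EBP. The matches are letters in a window and say nothing of binding.

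Other leading genes raised beyond the sum had different roles. CXCL14, a chemokine of tissue macrophages and epithelium, measured 0 and 0.097 TPM in control, 0.13 and 0.238 with TCP, 0.313 and 0.413 with palbociclib and 7.0 and 5.67 with both. Neither drug alone brought it to 1 TPM, and its interaction was 2.25 ± 0.26 (SE, limma adjusted p = 0.172). CXCL14 thus passed the filter through the combination libraries alone, which fixed a positive direction in advance. VNN2, a surface pantetheinase of neutrophils, was at 3.54 and 2.32 TPM in control, 6.48 and 3.2 with TCP, 2.0 and 0.539 with palbociclib and 15.2 and 7.7 with both. The second combination library overlapped neither control nor palbociclib but lay close to the higher TCP library. FAM65B, now named RIPOR2, an inhibitor of the GTPase RhoA, was below 1.1 TPM in all libraries without both drugs and at 6.4 and 5.19 TPM with them. Only palbociclib replicate 1 of the former reached 1 TPM, so FAM65B also passed the filter through the combination, which favoured a positive value. The microRNA entry MIR4469 also passed the rule for named genes, at 1.79 and 2.33. VCAN, the matrix proteoglycan versican of monocytes, was the gene of this shape that TCP alone moved most. It measured 0.783 and 1.16 TPM in control, 14.7 and 17 with TCP, 2.86 and 2.79 with palbociclib and 88.4 and 81.8 with both. It was higher with TCP than in control by 3.10 (limma adjusted p = 0.00101), and the interaction was 1.40 ± 0.19 (SE, limma adjusted p = 0.193). With a pseudocount of 0.1 TPM it was 0.83 and 1.07.

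**Figure D3:**
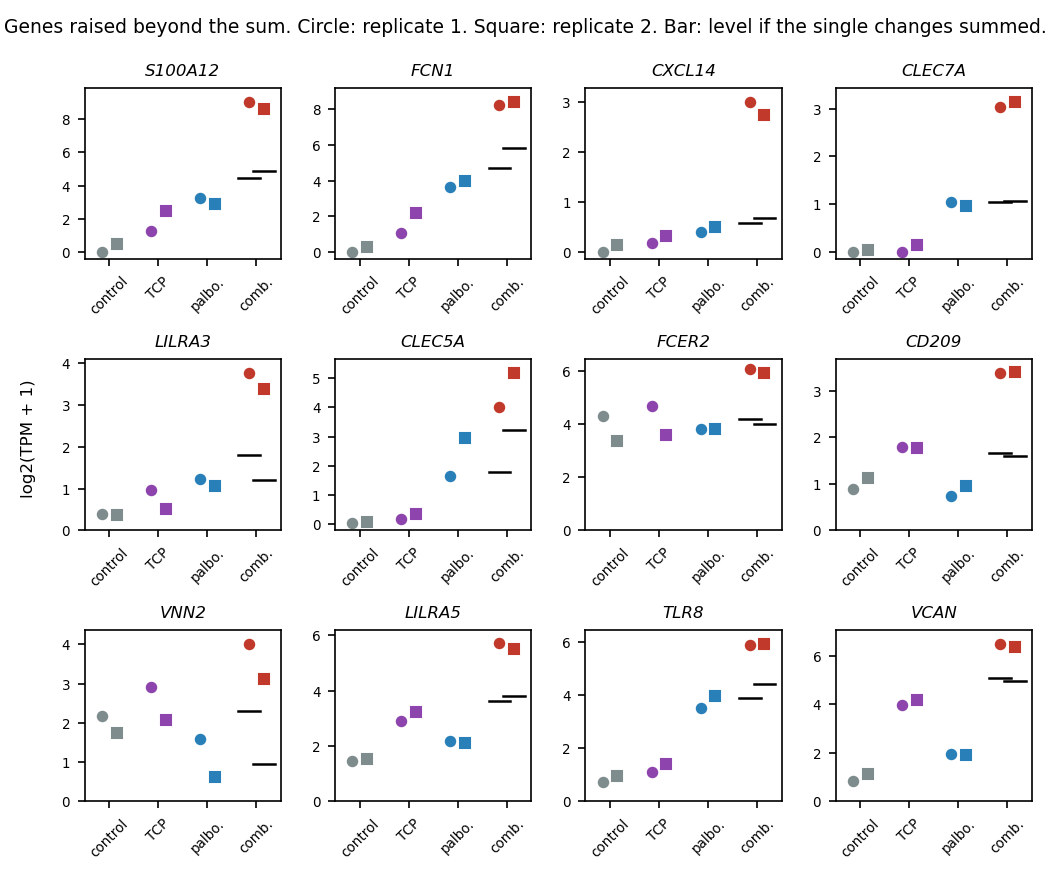
log2(TPM + 1) of 12 genes raised beyond the sum in each library (circle replicate 1, square replicate 2), with a bar where each combination library would lie if the single changes had summed. In all 12 panels both combination points lie above their bars, by 4.57 and 3.71 in S100A12 and by 1.39 and 1.40 in VCAN.

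Integrins, antigen presentation and receptors for cytokines held some genes of the same shape. ITGAM, the CD11b chain of the integrin Mac-1, measured 2.23 and 1.23 TPM in control, 6.5 and 3.1 with TCP, 1.91 and 1.8 with palbociclib and 13.3 and 11 with both, and its interaction was 1.16 ± 0.43 (SE, limma adjusted p = 0.729). Without TCP replicate 2 it was 0.72. Of 18 integrin and adhesion genes 12 were positive and 3 negative in both replicates, with a median of 0.14 that was 0.06 without palbociclib replicate 1. ITGA6, an integrin chain of progenitors and platelets that was chosen after its values were seen, was the lowest of them, at -0.92 and -1.04. CD86, a costimulatory ligand for T cells, measured 3.5 and 2.62 TPM in control, 14.8 and 7.0 with TCP, 1.8 and 1.78 with palbociclib and 24 and 18.4 with both. Palbociclib libraries were the lowest and combination libraries the highest, with an interaction of 1.50 ± 0.44 (SE, limma adjusted p = 0.564). Of 14 class II and costimulation genes 10 were positive and 2 negative in both replicates, with a median of 0.29 that was 0.16 without palbociclib replicate 2.

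CX3CR1, the fractalkine receptor of non-classical monocytes, measured 2.16 and 2.33 TPM in control, 1.57 and 2.91 with TCP, 12 and 20.7 with palbociclib and 39.2 and 49 with both. Its interaction was 1.45 ± 0.41 (SE, limma adjusted p = 0.537), with replicates at 1.93 and 0.97. CCR2, the receptor for CCL2 on classical monocytes, was at 29 and 41.7 TPM in control and 226 and 255 in the combination. It measured 50.7 and 83.6 TPM with TCP and 69.9 and 73.8 with palbociclib, between control and combination. Its interaction was 0.90 and 0.79 in the replicates and 0.49 without TCP replicate 1. Among the 21 receptors tested, 16 were positive and 4 negative in both replicates, 8 and 2 of them with an unadjusted p below 0.05, and the median was 0.22, or 0.34 without TCP replicate 1. Of 23 cytokine and chemokine genes 7 were positive and 2 negative in both replicates and 14 had opposite signs. EBI3, a subunit of IL-27 and IL-35, was one of the 2, at -1.30 and -0.54, and its mean was -0.43 without TCP replicate 1.

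Of 26 myeloid transcription factors tested, 20 were positive and 4 negative in both replicates, 7 and 1 with an unadjusted p below 0.05, and the median was 0.25, or 0.42 without palbociclib replicate 2. Against control, 8 of them were called higher and 5 lower with the combination, beside 5.87% and 7.82% of all genes. With palbociclib alone 4 were called higher and 3 lower, beside 4.54% and 4.56% of all genes. BCL6, a repressor with roles in macrophages and germinal centres, measured 0.734 and 1.71 TPM in control, 2.12 and 1.77 with TCP, 4.48 and 7.22 with palbociclib and 17.9 and 20.2 with both. Both combination libraries lay above the other 6, and the interaction was 1.14 ± 0.38 (SE, limma adjusted p = 0.646). In replicate 1 it was 0.94, and 0.56 with a pseudocount of 0.1 TPM. KCTD12, an LSD1 target and an auxiliary subunit of GABA-B receptors, was at 3.61 and 3.35 TPM in control, 7.04 and 6.71 with TCP, 6.22 and 5.67 with palbociclib and 38.2 and 30.8 with both, an interaction of 1.53 ± 0.18 (SE, limma adjusted p = 0.173). Of the 8 LSD1 targets in the fixed list 7 were positive and 1 negative in both replicates, with a median of 0.40 that was 0.20 without TCP replicate 1, and since they were chosen in part on these samples they are no independent evidence of a direction.

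Among lysosome genes, 2 cathepsins had the largest values. Of 35 lysosome genes 18 were positive and 13 negative in both replicates, and the median was 0.06, or -0.02 without combination replicate 2. CTSS, cathepsin S, which trims the invariant chain of class II molecules, measured 55.6 and 48.7 TPM in control, 69.5 and 54.8 with TCP, 43.9 and 37.5 with palbociclib and 120.1 and 95.4 with both. Both palbociclib libraries lay below both control libraries and both combination libraries above the other 6, and the interaction was 1.14 ± 0.23 (SE, limma adjusted p = 0.331). CTSH, cathepsin H, had 1.27 and 1.26. SLC11A1, the metal transporter NRAMP1 of phagosomes, measured 1.07 and 0.696 TPM in control, 0.565 and 0.264 with TCP, 3.47 and 3.12 with palbociclib and 6.86 and 6.92 with both, with an interaction of 1.29 ± 0.25 (SE, limma adjusted p = 0.299). HMOX1, heme oxygenase, had 0.81 and 0.64. Of 6 phagocyte oxidase genes 3 were positive and 2 negative in both replicates, with a median of 0.13 that was -0.10 without TCP replicate 1. TNIP3, a feedback inhibitor of NF-kB, had 1.11 and 1.09, or 0.36 and 0.80 with a pseudocount of 0.1 TPM, in a list of 26 in which 5 were positive and 10 negative.

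Genes lowered less than the sum were led by interferon-stimulated genes, the antiviral effectors that cells switch on in response to interferons. All 30 genes of this list passed the filter, 28 were positive in both replicates and 0 negative, and the median interaction of 0.90 was the largest of the lists. The median log2 change was -0.48 with TCP, -1.32 with palbociclib and -0.68 with both. Against control, 0 of the 30 were called lower with palbociclib and 0 with both, beside 4.56% and 7.82% of all genes. With both, 1 was called higher, beside 5.87% of all genes, and with TCP 0 were called in either direction. The word lowered thus rests on the medians. Only 1 of them had an unadjusted p below 0.05, close to the 2.86% of all genes.

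IFIT1, which binds uncapped viral RNA (GRCh37 chr10:91152303-91166244, plus strand), measured 61.6 TPM in control replicate 1 and 22.3 in replicate 2. With TCP it measured 42.5 and 5.45 TPM, with palbociclib 2.59 and 3.92 and with both 6.81 and 7.39. The control and TCP libraries of replicate 1 were thus well above those of replicate 2, while the palbociclib and combination pairs were alike, and every combination library lay above every palbociclib library. The interaction was 2.13 ± 1.19 (SE, limma adjusted p = 0.902), with replicates at 1.65 and 2.62. IFIT3 (GRCh37 chr10:91087064-91137230, plus strand), which binds IFIT1, measured 179.6 and 72.9 TPM in control, 122 and 19.1 with TCP, 8.84 and 11.8 with palbociclib and 18.2 and 19.8 with both. IFIT2, OAS1, OAS2, OASL and IFI44 had replicate interactions of 1.43 and 2.68, 1.43 and 1.54, 1.35 and 1.52, 1.31 and 1.56 and 1.34 and 2.00. The enzymes OAS1 and OAS2 make the messenger that activates RNase L. The interaction of IFIT1 was 0.76 without TCP replicate 2 and 3.51 without TCP replicate 1. Across these 7 genes it ran from 0.33 to 0.76 without TCP replicate 2 and from 2.40 to 3.51 without TCP replicate 1.

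The summed TPM of the 30 genes was 3704 and 2013 in control, 3399 and 1529 with TCP, 1804 and 2438 with palbociclib and 2571 and 2781 with both. The median interaction of the list was 0.12 without TCP replicate 2 and 1.68 without TCP replicate 1. The part of the difference between replicate 1 and replicate 2 in this result was not tested.

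The promoters of IFIT1 and IFIT3 are shown because these neighbours on chromosome 10 had the largest smaller-replicate interactions of the list. Each is the 250 bases before a RefSeq start on the plus strand of GRCh38.p14, and the capitals mark matches on either strand to GAAANNGAAA, a pair of the half-sites at the core of the interferon-stimulated response element. The windows are chr10:89392373-89392622 for IFIT1 and chr10:89327747-89327996 for the first of 2 starts of IFIT3.
IFIT1: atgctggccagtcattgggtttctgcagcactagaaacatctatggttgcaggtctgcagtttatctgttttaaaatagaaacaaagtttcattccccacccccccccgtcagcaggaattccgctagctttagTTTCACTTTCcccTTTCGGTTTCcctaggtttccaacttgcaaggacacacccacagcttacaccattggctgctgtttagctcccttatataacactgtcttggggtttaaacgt
IFIT3: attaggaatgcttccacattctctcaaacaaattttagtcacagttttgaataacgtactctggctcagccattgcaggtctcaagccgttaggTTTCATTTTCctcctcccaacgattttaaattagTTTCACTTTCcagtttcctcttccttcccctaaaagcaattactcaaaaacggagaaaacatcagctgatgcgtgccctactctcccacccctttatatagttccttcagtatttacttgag
IFIT1 holds 2 matches, which begin 116 and 103 bases before the start, and IFIT3 holds 2, at 156 and 122 bases, all on the other strand and none overlapping another motif searched. Of the 30 genes, 20 matched a RefSeq entry, with 27 promoters, and 18 of these (66.7%) held a match, against 3.02% of all RefSeq promoters and 2.65% of those of genes tested.

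IFI16, a nuclear sensor of DNA that is induced by interferon and lies outside the list and the rule, was chosen after its values were seen. It measured 104 and 62.1 TPM in control, 144 and 67.8 with TCP, 19.3 and 21.4 with palbociclib and 66 and 64.9 with both. The combination libraries lay about 3 times above palbociclib and within the range of control. The interaction was 1.34 ± 0.50 (SE, limma adjusted p = 0.729), and without TCP replicate 2 it was 0.81. ZBED3, a zinc finger protein that binds axin, had tighter replicates than the interferon genes. It measured 10.9 and 9.38 TPM in control, 10.9 and 6.5 with TCP, 1.23 and 1.0 with palbociclib and 4.91 and 3.23 with both, an interaction of 1.47 ± 0.36 (SE, limma adjusted p = 0.472). The log2 change against control was -2.39 with palbociclib (limma adjusted p = 5.87e-04) and -1.15 with both (limma adjusted p = 0.00818). MIR1206, a microRNA entry, also passed the rule, at 2.44 and 1.89.

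Smaller positive values were found in metabolic lists. Of 28 amino acid response genes, the targets of ATF4, 17 were positive and 2 negative in both replicates, with a median of 0.20 and 0 at an unadjusted p below 0.05. DDIT4, an inhibitor of mTORC1, measured 384 and 253 TPM in control, 398 and 181 with TCP, 44.9 and 42.8 with palbociclib and 69.8 and 58.4 with both. Its control and TCP libraries also ran higher in replicate 1, and its interaction was 0.75 ± 0.50 (SE, limma adjusted p = 0.937). It was 0.18 without TCP replicate 2. SESN2, a leucine sensor of the same pathway, had 0.69 and 0.94 and a mean of 0.41 without TCP replicate 2. The median of the list was -0.08 without TCP replicate 2. Of 30 genes of cholesterol and fatty acid synthesis 17 were positive and 5 negative, with a median of 0.10 that was -0.07 without TCP replicate 2. In the progenitor list LMO4, a LIM-only partner of haematopoietic factors, had 0.54 and 0.70, and 8 of 17 were positive and 5 negative.

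Of the 8 genes raised less than the sum by 1 or more, short entries aside, 7 passed the test for a rise with palbociclib against control, as did 4.54% of all genes, and 6 for a rise with the combination, as did 5.87%. The shape itself asks for a combination above control, so these counts describe it and support nothing. ADAMDEC1, a metalloprotease-like protein of macrophages and dendritic cells, was at 0.20 and 0.353 TPM in control and 0.42 and 0.449 with TCP. Palbociclib raised it to 23.8 and 30.7 TPM (limma adjusted p = 2.24e-05) and the combination gave 9.33 and 10.2. The combination differed from palbociclib by -1.38, which is part of the interaction of -1.56 ± 0.23 (SE, limma adjusted p = 0.2). ORM1 and ORM2 encode the acute phase protein orosomucoid and are near-identical neighbours on chromosome 9, so reads may have been split between them. ORM1 measured 0.87 and 0.799 TPM in control, 0 and 0.652 with TCP, 90.6 and 64.5 with palbociclib and 23.7 and 13.6 with both. ORM2 measured 0.288 and 0.113, 0 and 0.463, 29.9 and 21.6 and 8.76 and 5.43 TPM in the same order. Their interactions were -0.99 and -2.04 and -1.30 and -2.21. With a pseudocount of 0.1 TPM the sign in replicate 1 changed, to 1.35 for ORM1 and 0.20 for ORM2, and TCP replicate 1 is the library listed at 0 for both.

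LTC4S, the synthase of leukotriene C4, was expressed in control at 6.2 and 4.88 TPM and with TCP at 6.14 and 4.1. It measured 51.5 and 58.9 TPM with palbociclib and 23.3 and 24.1 with both, an interaction of -1.07 ± 0.26 (SE, limma adjusted p = 0.457). GHRL, the precursor of ghrelin, measured 2.61 and 2.62 TPM in control, 4.93 and 5.09 with TCP, 10.3 and 13.6 with palbociclib and 6.53 and 8.29 with both, with no overlap between control and any treatment. Its interaction was -1.35 ± 0.23 (SE, limma adjusted p = 0.244). VIT, a matrix protein named vitrin, and LINC01268, a long noncoding RNA, measured 9.91 and 11.1 and 4.26 and 7.52 TPM with palbociclib and 2.75 and 3.4 and 0.791 and 1.82 with both, and were below 0.5 TPM in all control and TCP libraries. Their replicate interactions were -1.59 and -1.02 and -1.43 and -1.09, and with a pseudocount of 0.1 TPM that of replicate 2 changed sign, to 0.03 for VIT and 0.38 for LINC01268. GNG11, a G-protein subunit, had palbociclib libraries that differed 3-fold, at 5.5 and 16.8 TPM, and an interaction of -1.48 ± 0.59 (SE, limma adjusted p = 0.765). Without palbociclib replicate 2 it was -0.76. The rule also named the short entries MIR378I, MIR27A, MIR4449, MIR23A and SNORD74, at -2.18 and -2.70, -2.11 and -2.43, -3.87 and -1.93, -1.15 and -1.82 and -1.91 and -1.13. MIR23A and MIR27A lie within 1 kb of each other on chromosome 19. BIRC3, an inhibitor of apoptosis, had -0.54 and -0.56.

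Genes lowered beyond the sum were the most numerous shape, and most of the departures were small. The 3774 genes had a median interaction of -0.19, and both combination libraries lay below the other 6 in 2217 of them and in 3337 of all genes (23.6%), a count that the choice of the shape partly fixes. Proliferation genes made up 2 of the 3 lists with the lowest medians. All 34 genes of the S phase list were tested, 33 were negative in both replicates and 0 positive, 16 had an unadjusted p below 0.05, and the median was -0.44. Over all genes 35.5% were negative in both replicates and 3.53% negative with such a p. In the G2 and M phase list 29 of 30 were negative in both and 0 positive, 14 with an unadjusted p below 0.05, and the median was -0.37. Without TCP replicate 2 the median of the S phase list was -0.29. The medians of single changes in it were -0.09 with TCP and -1.01 with palbociclib, and -1.42 with both. Both combination libraries lay below all others in 32 of 34 S phase genes and 30 of 30 G2 and M genes.

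CDC45, a subunit of the replicative helicase, measured 41.7 and 47.4 TPM in control, 39.5 and 48.5 with TCP, 20.5 and 19.3 with palbociclib and 11.9 and 12.3 with both. The TCP libraries overlapped control, and both combination libraries lay below both palbociclib libraries. The interaction was -0.65 ± 0.17 (SE, limma adjusted p = 0.523). CCNE2, cyclin E2, was at 38.2 and 40.0 TPM in control, 41.6 and 45.5 with TCP, 44.5 and 40.6 with palbociclib and 29.3 and 29.2 with both. No library with a single drug lay below both control libraries. The combination differed from control by -0.41 (limma adjusted p = 0.0065), short of the size that counted as a call. CDK1, the mitotic kinase, measured 103 and 94.9 TPM in control, 95.6 and 89.1 with TCP, 45.7 and 40.9 with palbociclib and 24.2 and 24.2 with both, an interaction of -0.71 ± 0.13 (SE, limma adjusted p = 0.246). UBE2C, the ubiquitin-conjugating enzyme of the anaphase-promoting complex, had -0.75 and -0.65. On the linear TPM scale, where a sum means added TPM, the S phase list had 26 negative and 1 positive and the G2 and M list 18 negative and 0 positive.

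The promoter at the second RefSeq start of CDK1 is shown because this gene had the largest negative interaction of the mitotic list (chr10:60778228-60778477, GRCh38.p14, plus strand, 250 bases before the start). The capitals mark matches on either strand to TTTNNCGC, a loose form of the core to which E2F factors bind, with any base allowed at N.
CDK1: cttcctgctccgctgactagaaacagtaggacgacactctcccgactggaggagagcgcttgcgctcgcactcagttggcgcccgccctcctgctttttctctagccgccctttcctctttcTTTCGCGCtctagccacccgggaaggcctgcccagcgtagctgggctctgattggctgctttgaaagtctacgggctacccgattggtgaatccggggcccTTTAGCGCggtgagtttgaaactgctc
The matches begin 128 and 27 bases before the start, both along the gene, and the window of the first start holds none. Of 34 S phase genes 28 matched a RefSeq entry, with 36 promoters, of which 13 (36.1%) held a match. Of the G2 and M list 24 genes matched, with 30 promoters and 3 matches (10%), and the share was 5.92% over all RefSeq promoters and 8.52% over those of genes tested, near that of the G2 and M list.

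**Figure D4:**
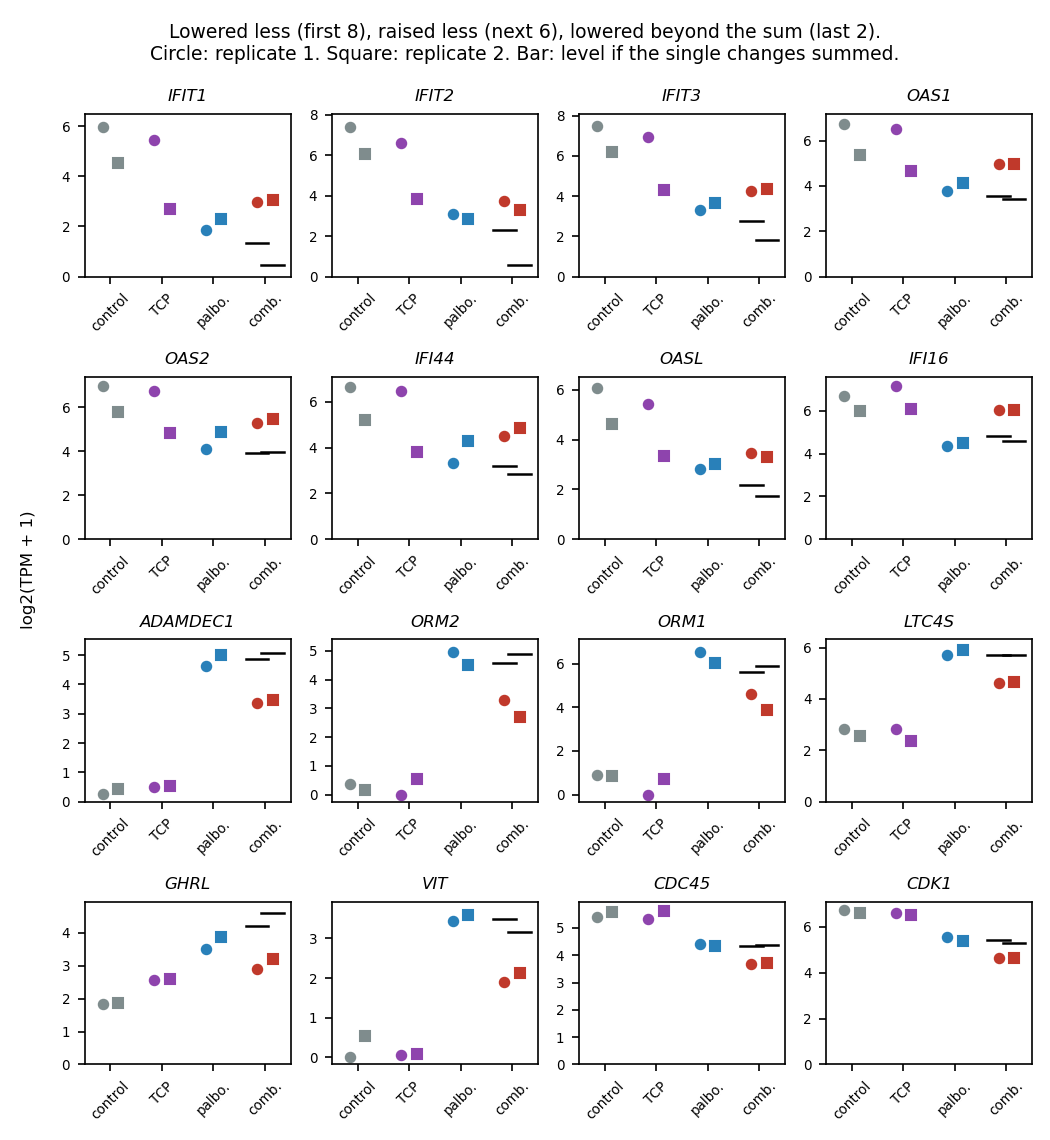
log2(TPM + 1) of 8 genes lowered less than the sum, 6 raised less and 2 lowered beyond it, in each library (circle replicate 1, square replicate 2), with a bar where each combination library would lie if the single changes had summed. The combination points lie above the bars in the first 8 panels and below them in the other 8, and IFIT1 shows control and TCP replicates far apart, at 61.6 and 22.3 and 42.5 and 5.45 TPM.

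The large departures of this shape lay mostly in short entries. Of the 33 genes at 1 or more in size 30 were small RNA entries. The median of the 33 was 0 TPM in control and 0 TPM with both drugs. Their median log2 change was 0.65 with TCP, 0.61 with palbociclib and 0 with both. All 33 lay at or below control with both, so most stayed at the control level rather than being lowered. The rule named MIR4745, MIR600, MIR5703, MIR555, SNORD93, SNORD67, SNORA34 and MIR6854, with means between -3.49 and -1.30. SNORD93, a guide RNA for the modification of other RNAs, was the most even of them, at 11.5 and 12.9 TPM in control, 19 and 22.2 with TCP, 8.34 and 5.5 with palbociclib and 2.94 and 2.88 with both. Many such entries lie within longer genes, and reads of the host and of the short RNA cannot be told apart in these values. Named after the class was left out were TCTEX1D2, LOC101928307, ANGPT1, SYT2, EMID1, KLK1, FLJ46906 and FAM101B.

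ANGPT1, the TIE2 ligand angiopoietin-1, measured 2.3 and 0.905 TPM in control, 9.2 and 2.27 with TCP, 0 and 0.141 with palbociclib and 0.0251 and 0 with both. Control and TCP overlapped, and the mean interaction was -2.10 without TCP replicate 2 and -0.46 without TCP replicate 1. SYT2, a calcium sensor of vesicle release, measured 2.05 and 2.15 TPM in control, 6.56 and 5.67 with TCP, 0.807 and 0.825 with palbociclib and 1.36 and 0.932 with both. FAM101B, now RFLNB, a filamin-binding protein, was the most abundant, at 132 and 120.2 TPM in control, 138 and 115 with TCP, 147 and 155 with palbociclib and 86.1 and 84.5 with both. The combination was below every other library, and the interaction was -0.82 ± 0.14 (SE, limma adjusted p = 0.246). EMID1, an EMI domain protein, and TCTEX1D2, a dynein light chain, had -0.99 and -0.88 and -1.20 and -1.34. KLK1, tissue kallikrein, and the noncoding FLJ46906 and LOC101928307 had -0.98 and -0.85, -0.93 and -0.82 and -1.29 and -1.09. Without TCP replicate 1 the mean was -0.54 for EMID1 and -0.47 for LOC101928307.

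The targets of the drugs departed little. KDM1A, the target of TCP, measured 79.6 and 85 TPM in control, 83 and 79.6 with TCP, 47.4 and 42.5 with palbociclib and 47.5 and 45.6 with both, an interaction of 0.07 ± 0.12 (SE). CDK4 had -0.29 ± 0.14 and CDK6 -0.06 ± 0.15. Of 15 genes of the LSD1 complex and its partners 4 were positive and 4 negative, and they lay between -0.13 and 0.22. CDKN1A, the CDK inhibitor p21, had 0.85 and 0.58, with a mean of 0.29 without TCP replicate 2, in a list of 15 G1 genes with 4 positive and 5 negative. Of 28 ribosomal protein genes 23 were negative in both replicates. Their median was -0.15 in replicate 1, against -0.05 for all genes, and -0.09 in replicate 2, against 0.01. Centring on the median gene left 21 negative and 1 positive, and the median of -0.12 over both replicates was -0.05 without palbociclib replicate 1. Lipid efflux genes had 9 positive and 3 negative of 15, iron and glutathione genes 10 and 4 of 22, and apoptosis regulators 12 and 5 of 23. The medians of 0.20, 0.08 and 0.11 were 0.03 without TCP replicate 2, 0.03 without combination replicate 2 and 0.07 without palbociclib replicate 2. These signs are to be read against the 27.2% positive and 35.5% negative of all genes.

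**Figure D5:**
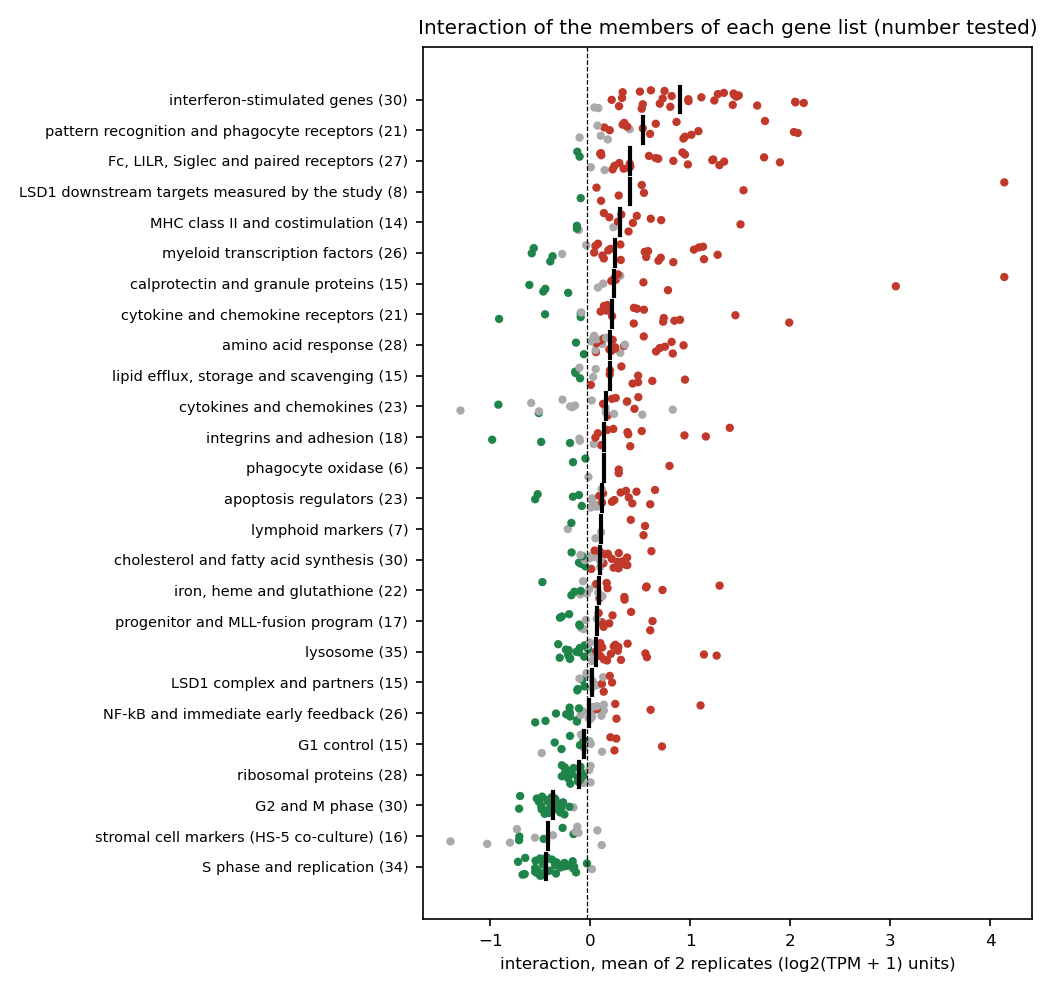
Mean interaction of each tested member of 26 gene lists, in log2(TPM + 1) units, with red for positive and green for negative in both replicates, grey for opposite signs, a bar at the list's median and a dashed line at the median of all genes. Interferon-stimulated genes sit highest, with a median of 0.90, and S phase genes lowest, at -0.44.

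Markers of other cells were measured beside these results. Of 28 stromal markers 26 were in the table and 16 passed the filter, none positive and 5 negative in both replicates, with medians of 0.18 in replicate 1 and -0.97 in replicate 2. Their summed TPM ranged from 163 to 176 in control, from 165 to 173 with TCP, from 232 to 396 with palbociclib and from 217 to 239 with both. Palbociclib replicate 2 held the highest, where COL1A1 was at 22.2 TPM against 1.32 in replicate 1. The median of this list was 0.54 without that library and -1.41 without palbociclib replicate 1. Of 16 lymphoid markers 7 passed the filter, with a median of 0.11 that was -0.06 without TCP replicate 2, and of 16 megakaryocyte, erythroid and mast cell markers 2. Their part in the results above was not tested. In bulk samples fewer cells with a transcript and less of it per cell cannot be told apart.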

How the data were processed

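RNA from MV4-11 cells in 4 groups of 2 libraries (control, TCP, palbociclib, combination) was sequenced with a stranded mRNA kit. The authors aligned reads to hg19 with Subread, and their processing notes also list SAMtools 1.9, featureCounts 1.6.4 and DESeq2 1.26.0. The annotation, gene lengths and strand setting are not given in the sources used here. The deposited values are TPM per gene symbol, which keep no read depth, so the depth is unknown and no counting interval is given.

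From these, log2(TPM + 1) was computed for the 14151 of 26364 symbols with at least 1 TPM in 2 or more libraries. The interaction was fitted to the 8 libraries in limma 3.58.1 (R 4.3.3), each group having its own mean, with a mean-variance trend and Benjamini-Hochberg adjustment over all genes tested, which left 4 residual degrees of freedom. A call needed an adjusted p below 0.01 and a size of at least 1. The fit was tested on simulated data. Fold changes understate those of genes near 1 TPM or below.

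A replicate number pairs libraries here only as a number, as the labels name no shared culture. Deviations from group means correlated at 0.169 to 0.491 over genes in the 6 pairs of groups. The mean interaction does not depend on the pairing, but the counts of genes with the same sign do.

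Genes named had a mean of at least 5 TPM in their highest group and were ordered within each shape by the smaller replicate value, the first 12 of those raised beyond the sum and the first 8 of each other shape. The drug targets and up to 2 members of each gene list at 0.5 or more in both replicates were added. The same rule without small RNA genes, and genes marked so in the text, were added after values were seen. Some genes that the rule names are not reported here. The members, lists and tests were chosen with earlier results of these data known. Gene positions are GENCODE v44 lifted to GRCh37, and promoters are from RefSeq (GRCh38.p14). Alternatives covered the pseudocount, filter, scaling, replicate block, trend, thresholds, linear scale and each library left out.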

Additional observations from a re-analysis of the deposited data

How the results depend on the processing

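The count of 0 genes called held under every alternative run except without a filter on low values, where limma called 9, of which CLEC7A (2.04, adjusted p = 0.00561) is named above. With the replicate number as a block, to allow for pairing, 0 were called, the smallest adjusted p was 0.0873, and 690 positive and 914 negative genes had an unadjusted p below 0.05, against 405 and 499. Without the filter these were 662 and 824. Leaving out 1 library gave 289 to 810 positive, the lowest without combination replicate 1 and the highest without TCP replicate 1, and 322 to 765 negative, the lowest without control replicate 1 and the highest without TCP replicate 1. With 1 library left in a group, its spread is assumed to be that of the other groups, and counts by sign in both replicates could not be made.

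Genes of at least 1 in size in both replicates numbered 44 positive and 15 negative at a mean of at least 5 TPM, and 65 and 11 without small RNA genes, an alternative chosen after the data were seen. With a pseudocount of 0.1 TPM 92 were negative. Of 1372 values of 87 named genes over the alternatives, each a mean interaction, 4 reversed, in 3 genes. The sign in 1 replicate could change without this, as in ORM1, ORM2, VIT and LINC01268 with a pseudocount of 0.1 TPM. Those genes then no longer had the same sign in both replicates. LYZ was 0.126 without control replicate 1, 0.0117 without TCP replicate 2 and -1.34 without control replicate 2. KDM1A was -0.0083 without palbociclib replicate 2 and 0.14 without palbociclib replicate 1, and CDK6 was 0.0893 without control replicate 1 and -0.22 without control replicate 2. By sign in both replicates, 3854 genes were positive and 5018 negative, and quantile normalization gave 4282 and 4656 and scaling by median ratios 4339 and 4587, so more genes stayed negative by a smaller margin. Centring on the median gene makes both numbers equal by construction, at 4465. Since TPM keep no depth, how precisely genes below 1 TPM were measured is unknown.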

Other observations

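The effect of TCP could be read without and with palbociclib. In 740 of the 14151 genes tested TCP gave lower values than control in both replicates and higher values when added to palbociclib. In 891 it was the other way round. Whether these counts exceed what unrelated signs would give was not tested. Beyond 0.5 in size at each of these steps, only IFIT1, IFIT3 and MNDA were in the first set. MNDA, a nuclear antigen of myeloid cells that interferon induces and that was chosen after its values were seen, measured 31.4 and 33.9 TPM in control, 20.0 and 20.0 with TCP, 99.7 and 90.1 with palbociclib and 154 and 137 with both. Its replicates did not overlap between groups, and its interaction was 1.29 ± 0.13 (SE, limma adjusted p = 0.172), with replicates at 1.25 and 1.33. In the second set 6 genes passed 0.5. GHRL was the only 1 of them that is no small RNA entry and had a mean of at least 5 TPM in its highest group. The comparisons share libraries, and these counts are descriptions.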
